A study of Mus musculus with 8 samples.

Results

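Mammary cells sorted as reporter-high or reporter-low were compared between mice with 1 and with 2 disrupted copies of Axl, to find the genes for which the difference between the sorted fractions depended on genotype. The quantity described is the interaction, computed per gene as the High minus Low difference in LacZ/LacZ glands less the High minus Low difference in LacZ/+ glands, on normalized log2 intensities, where a difference of 1 is a 2-fold difference. It uses all 8 of the 8 arrays, 2 in each of 4 groups. A positive interaction, called higher here, means that High minus Low was larger in LacZ/LacZ, and a negative one, called lower, that it was smaller. Of 16593 genes tested, 135 passed an adjusted p of 0.05 (limma). In 132 of these the fitted High minus Low difference had opposite signs in the 2 genotypes, called turned round here. The arrays of the 2 gates were also separated in opposite directions in 125 of them.

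All mice were nulliparous, 16 weeks old and of the B6.129P2-Axltm1Dgen strain, in which a lacZ cassette interrupts Axl. The heterozygotes (Axl+/LacZ, here LacZ/+) kept 1 intact allele and the homozygotes (AxlLacZ/LacZ, here LacZ/LacZ) kept none, so every group carried the insertion and no gland without it was measured. Dissociated glands were stained with FDG, a substrate that turns fluorescent when the lacZ product, beta-galactosidase, cleaves it. Single cells that excluded propidium iodide and were negative for CD45, CD31 and CD11b were sorted. The brightest 5% formed the High gate, meant to enrich cells that use the Axl promoter, and the dimmest 65% formed the Low gate. The gates were thus fixed shares of cells, and the homozygotes had lacZ on both alleles. Each sample pooled glands from several animals of 1 genotype. Whether the 2 replicates of a group were independent pools is not stated, and the p-values then reflect only how far these samples varied, perhaps for technical reasons.

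Axl, Tyro3 and Mertk are the TAM receptor tyrosine kinases, and Axl is activated by its ligand Gas6. In many carcinomas its expression goes with mesenchymal features. The mammary gland holds ducts of luminal cells, which carry simple-epithelial keratins and tight junctions, inside a layer of contractile basal cells, and a stroma of fibroblasts, vessels and fat. Because the sort removed leukocytes and endothelium but neither epithelium nor fibroblasts, each fraction could hold both. In such bulk samples, fewer cells of a type and less RNA per cell cannot be told apart.

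Normalized levels of Axl were 8.88 and 9.12 log2 in the LacZ/+ High arrays, 8.44 and 7.97 in LacZ/+ Low, 6.07 and 6.40 in LacZ/LacZ High, and 6.24 and 6.39 in LacZ/LacZ Low. The 4 LacZ/LacZ arrays lay below the 4 LacZ/+ arrays, as the genotype labels state. In LacZ/+ the High arrays were above the Low arrays, and in LacZ/LacZ the gates overlapped, so Axl does not check the gate labels there. Its interaction of -0.87 ± 0.28 (SE) did not pass (limma, adjusted p = 0.22). Tyro3 had an interaction of 0.03 ± 0.22 at levels of 5.80 to 6.22, while Mertk had -0.72 ± 0.24 (adjusted p = 0.237). Among the 8 genes of TAM signalling the most negative was Pros1, with -1.60 (limma, adjusted p = 0.0722). Gas6 had -0.50 (adjusted p = 0.791).

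The share of probes above background ranged from 48.1% to 55.5% and was lowest on the LacZ/LacZ Low arrays. The 2 Low groups were the least alike. Across genes, which are not independent replicates, Pearson's r between LacZ/+ Low and LacZ/LacZ Low arrays was 0.880 to 0.895, against 0.968 to 0.973 between the High arrays of the 2 genotypes. Replicates within a group correlated at 0.963 to 0.980. The 2 LacZ/+ Low arrays differed from each other in stroma: the mean log2 level of 21 fibroblast genes was 7.50 on the first and 8.65 on the second.

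Of the 135 genes, 0.814% of those tested, 96 were higher (0.579%) and 39 were lower (0.235%). Median centring of the arrays in place of quantile normalization gave 160 higher and 22 lower. The called interactions ran from -2.85 to 3.99, and none was smaller than 0.885 in size. At an unadjusted p of 0.05, 2374 of 16593 genes passed (1239 higher and 1135 lower), and about 830 would pass if no gene differed. Counts in gene lists at the unadjusted p, given below, are to be read against these 2374 of 16593. The count depended on single arrays. It was 0 without either LacZ/LacZ Low array (1869 and 1960 genes at the unadjusted p) and 1, Wnt7b, without either LacZ/+ Low array. It was 16 without the second LacZ/+ High array, 42 without the first LacZ/LacZ High array, 329 without the second LacZ/LacZ High array, and 151, of which 84 were lower, without the first LacZ/+ High array.

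High minus Low changed sign between genotypes in 132 of the 135 genes, against 54.3% of all genes tested. In 125 of them both High arrays were above both Low arrays in one genotype and below both in the other, against 11.6% of all genes, and in 85 both gate differences were at least 0.5 log2 in size, against 3.56%. These shares follow in part from the choice of genes by their interaction and are given as description. No gene among the 135 had a gate difference past the adjusted threshold in both genotypes. That threshold was passed by 49 of them in LacZ/LacZ (0.392% of all genes passed) and by 1 in LacZ/+ (0.00603% of all genes, which is 1 gene). At an unadjusted p of 0.05 in both genotypes (limma), 116 had opposite gate differences. Over all 16593 genes, 565 passed that p in both genotypes, with equal or opposite signs. The 116 follow in part from the choice of genes by their interaction. In the higher genes, High was below Low in LacZ/+ by a median difference of -0.79 log2, and above Low in LacZ/LacZ by 1.07. In the lower genes the medians were 0.72 and -0.97.

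**Figure D1:**
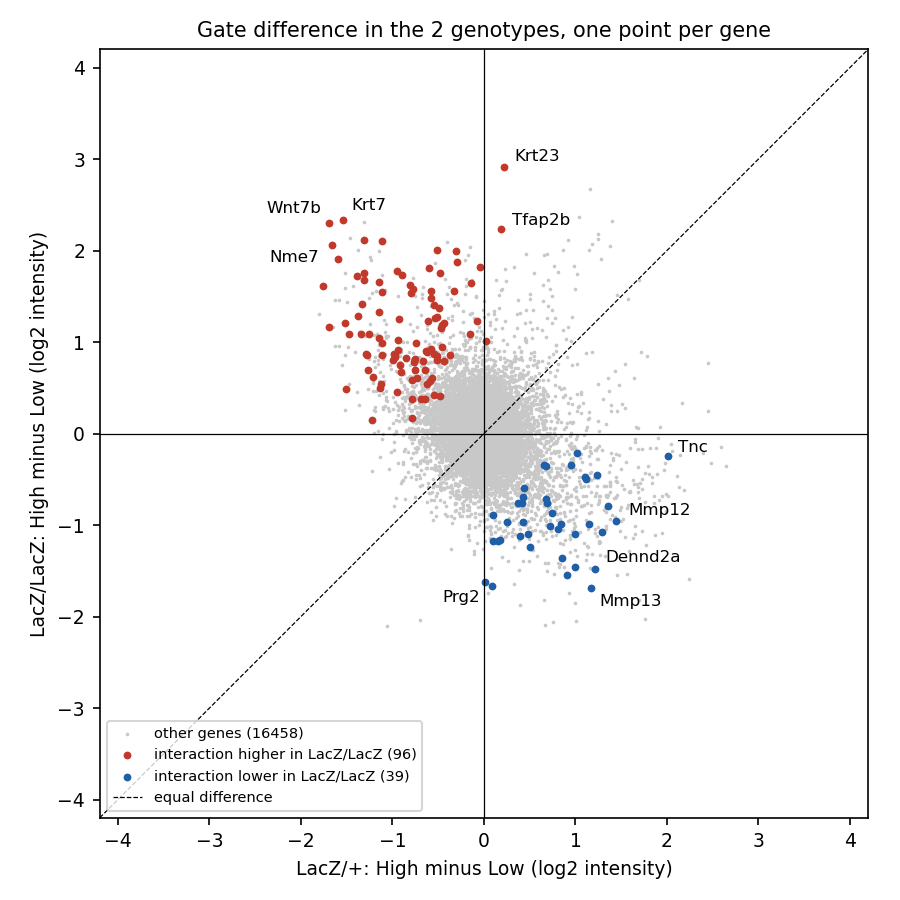
High minus Low difference of each of 16593 genes in LacZ/+ (x axis) and LacZ/LacZ (y axis), in log2 intensity, with 96 higher interaction calls in red, 39 lower in blue and the line of equal differences dashed. Almost all calls lie to the upper left or lower right of the origin, where the 2 differences have opposite signs, and Krt23 and Tfap2b lie to the right of the vertical axis.

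The same interaction can be read as the genotype difference in the High gate less that in the Low gate, and it lay mostly in the Low gate. All 135 genes also differed between genotypes in the Low gate, where 8.42% of all genes passed, and none did in the High gate, where 0 genes passed in limma (0%; 30 of the 135 and 639 of all genes at an unadjusted p of 0.05). The genotype difference was larger in Low than in High in 134 of the 135, against 65.7% of all genes. The exception was Bcl2l14, a member of the Bcl2 family, with a LacZ/LacZ minus LacZ/+ difference of 0.67 in High and -0.65 in Low. Bcl2l14 was not above background on either LacZ/+ High array, and its other, dim probe gave an interaction of 0.09. For the higher genes the median LacZ/LacZ minus LacZ/+ difference was -1.80 in Low and 0.11 in High, and for the lower genes 1.53 and -0.08. By these medians the 2 High groups lay close together, between the 2 Low groups. The genotype differences are the parts of the interaction by which the 135 genes were chosen. Their counts and medians here follow in part from that choice and are given as description. Without either LacZ/LacZ Low array, the Low-gate genotype comparison called 121 and 151 genes, against 1397 with both.

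**Figure D2:**
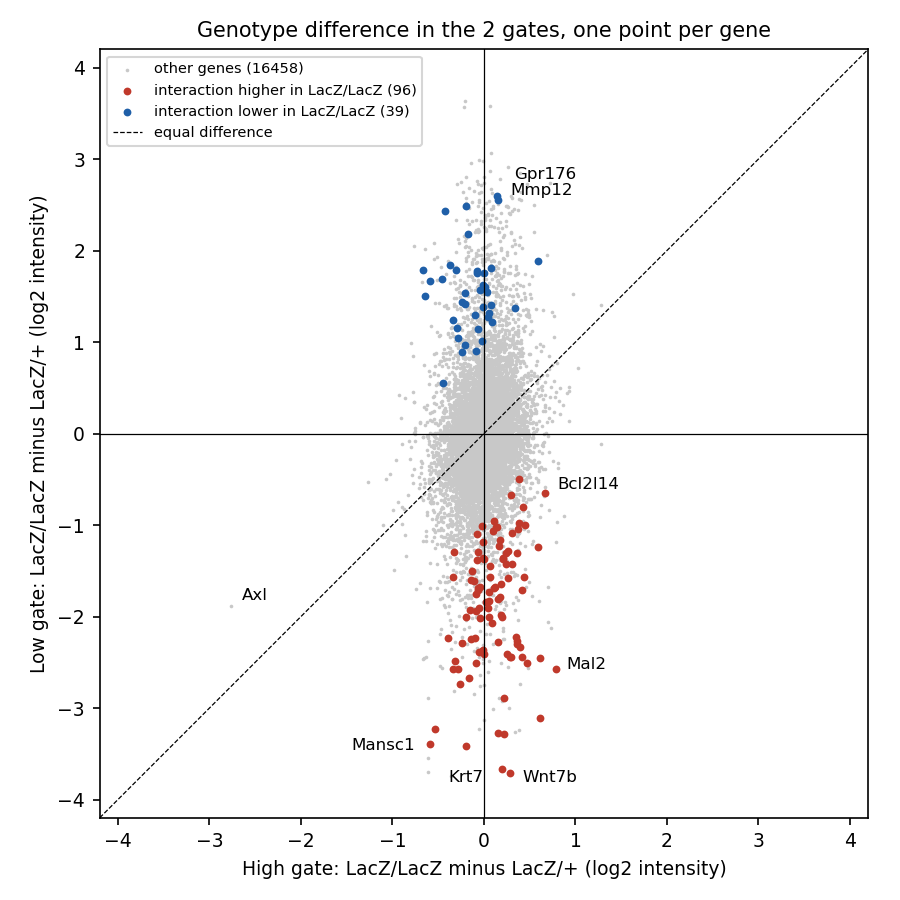
LacZ/LacZ minus LacZ/+ difference of each gene in the High gate (x axis) and the Low gate (y axis), in log2 intensity, with higher calls in red, lower in blue and equal differences dashed. The calls spread along the vertical axis and stay near 0 on the horizontal one, while Axl lies far to the left.

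**Figure D3:**
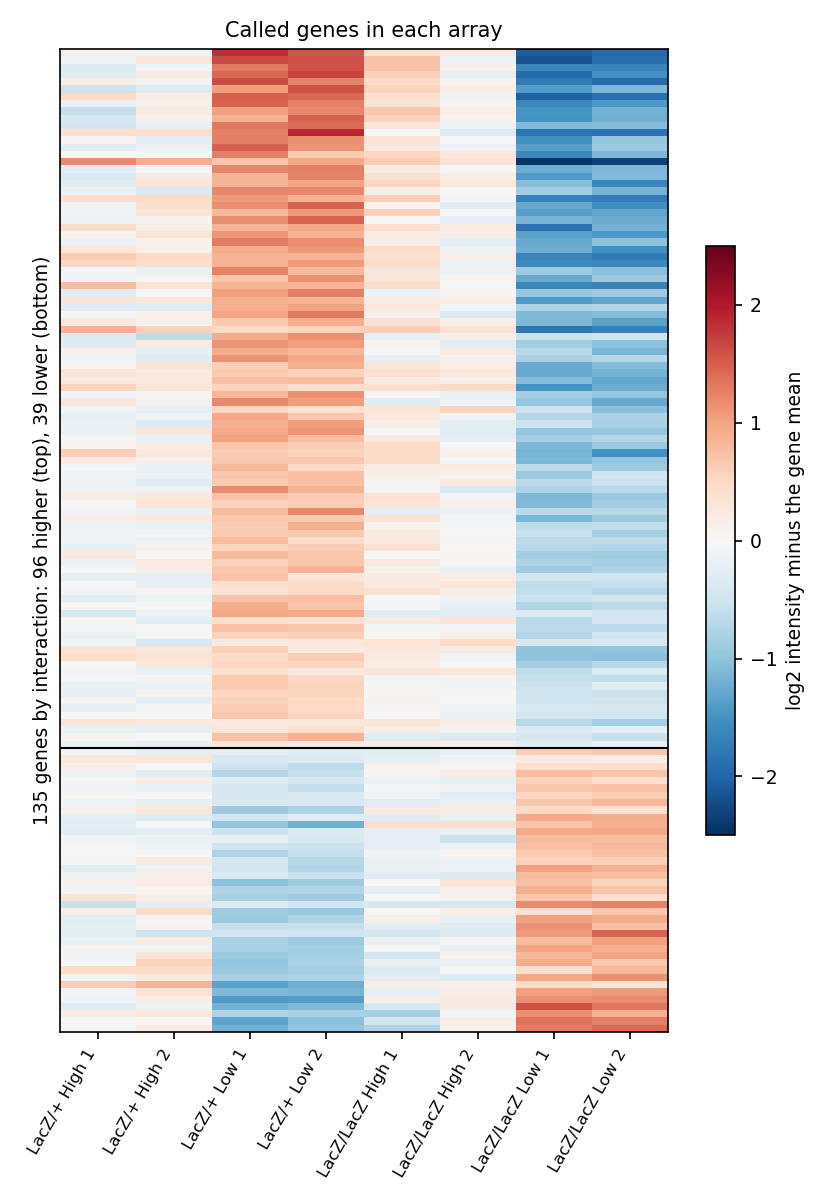
Normalized log2 intensity of the 135 genes (rows, ordered by interaction, 96 higher above the line and 39 lower below it) in each of the 8 arrays (columns), minus the mean of the gene over the arrays. In the upper block LacZ/+ Low is high and LacZ/LacZ Low is low, the lower block is the other way round, and the 4 High arrays lie between.

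Promoters are shown for 3 higher and 3 lower genes that turned round and had an entry in the RefSeq table (GRCm38.p6). They were those whose smaller gate difference, of the 2 genotypes, was largest in size. Each window runs from 250 bases before the gene start to 50 after it, 5′ to 3′ on the strand of the gene. Capitals mark letters of any of 5 motifs searched on both strands: GCCNNNGGC (bound by the TFAP2 family), AACNNGTT (grainyhead-like factors), CACCTG (ZEB and SNAI repressors), TGANTCA (AP-1) and GGAATG (TEAD). No motif contains another, and the matches shown do not overlap. Nme7 lies on chr1:164307422-164307721 (plus strand), Ltf on chr9:111019042-111019341 (plus) and Krt7 on chr15:101412153-101412452 (plus). Dennd2a lies on chr6:39557785-39558084 (minus strand), Mmp13 on chr9:7272264-7272563 (plus) and Dpp7 on chr2:25356283-25356582 (minus). Wnt7b, Mal2 and Adgra2 are named only.
Nme7: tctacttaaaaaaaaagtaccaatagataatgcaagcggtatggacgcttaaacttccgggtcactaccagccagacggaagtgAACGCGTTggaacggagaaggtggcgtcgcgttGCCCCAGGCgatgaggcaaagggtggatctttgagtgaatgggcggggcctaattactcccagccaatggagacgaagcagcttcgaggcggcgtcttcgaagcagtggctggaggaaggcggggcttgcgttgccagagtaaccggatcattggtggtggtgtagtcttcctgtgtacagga
Ltf: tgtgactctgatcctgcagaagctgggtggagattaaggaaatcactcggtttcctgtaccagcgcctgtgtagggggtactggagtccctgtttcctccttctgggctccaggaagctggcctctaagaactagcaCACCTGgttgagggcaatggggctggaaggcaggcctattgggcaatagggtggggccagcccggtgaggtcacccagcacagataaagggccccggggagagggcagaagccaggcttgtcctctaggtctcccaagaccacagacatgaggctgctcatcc
Krt7: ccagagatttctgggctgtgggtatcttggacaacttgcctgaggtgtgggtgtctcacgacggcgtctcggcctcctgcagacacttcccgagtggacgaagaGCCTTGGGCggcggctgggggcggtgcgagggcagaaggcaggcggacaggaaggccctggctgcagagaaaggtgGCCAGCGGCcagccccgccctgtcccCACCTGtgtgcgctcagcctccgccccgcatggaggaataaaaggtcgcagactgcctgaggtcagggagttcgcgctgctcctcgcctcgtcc
Dennd2a: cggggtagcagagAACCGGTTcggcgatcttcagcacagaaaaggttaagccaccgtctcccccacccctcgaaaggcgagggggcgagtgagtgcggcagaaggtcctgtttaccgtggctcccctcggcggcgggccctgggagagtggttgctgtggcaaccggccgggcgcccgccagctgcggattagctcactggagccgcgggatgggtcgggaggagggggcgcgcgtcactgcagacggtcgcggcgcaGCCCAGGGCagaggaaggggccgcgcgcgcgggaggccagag
Mmp13: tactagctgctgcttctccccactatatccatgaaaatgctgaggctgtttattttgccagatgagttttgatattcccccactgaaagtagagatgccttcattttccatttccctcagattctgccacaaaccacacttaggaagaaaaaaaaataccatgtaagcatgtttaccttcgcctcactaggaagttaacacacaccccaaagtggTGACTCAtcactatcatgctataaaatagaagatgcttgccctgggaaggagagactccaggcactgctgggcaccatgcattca
Dpp7: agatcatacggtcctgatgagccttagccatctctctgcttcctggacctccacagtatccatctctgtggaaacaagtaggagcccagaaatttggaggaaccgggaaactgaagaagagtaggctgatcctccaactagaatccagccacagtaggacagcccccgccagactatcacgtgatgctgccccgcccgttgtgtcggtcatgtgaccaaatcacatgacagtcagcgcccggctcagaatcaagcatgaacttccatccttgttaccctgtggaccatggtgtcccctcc

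The Krt7 window held the TFAP2 letters 146 and 70 bases before the start and CACCTG 44 bases before it. The Ltf window held CACCTG 113 bases before the start. The Nme7 window held the grainyhead letters 166 bases before the start and the TFAP2 letters 133 bases before it. Among the lower genes, Mmp13 held the AP-1 letters 35 bases before the start, and Dennd2a the grainyhead letters 237 bases before it and the TFAP2 letters 8 bases after it. The Dpp7 window held no match.

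Over all higher genes, 72 of 96 matched the table with 93 windows, and of the lower genes 30 of 39 with 40 windows. CACCTG was in 35.5% of the windows of higher genes, 12.5% of those of lower genes and 19.3% of the 16535 windows of all genes tested. The TFAP2 letters were in 29.0%, 20.0% and 20.9%, the AP-1 letters in 8.6%, 7.5% and 7.1%, the grainyhead letters in 2.2%, 7.5% and 3.8%, and the TEAD letters in 10 of 93, 4 of 40 and 2148 of 16535 windows. These shares are descriptions without a test, and a match of letters is not a binding site.

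Among the higher genes were products of luminal epithelium. Wnt7b, a secreted Wnt ligand made by ductal luminal cells, had the highest interaction. Its levels were 9.28 and 9.05 log2 in LacZ/+ High, 11.003 and 10.72 in LacZ/+ Low, 9.50 and 9.40 in LacZ/LacZ High, and 7.09 and 7.20 in LacZ/LacZ Low. The High arrays of both genotypes lay together, with LacZ/+ Low above all of them and LacZ/LacZ Low below. High minus Low was thus -1.70 ± 0.14 in LacZ/+ and 2.30 ± 0.14 in LacZ/LacZ, an interaction of 3.99 ± 0.19 (limma, adjusted p = 0.00732). Without either LacZ/LacZ Low array it was 3.93 and 4.05, with adjusted p = 0.0851 and 0.0682. A second, dim Wnt7b probe gave -0.01, and the mean of both probes 1.99. Among 45 genes of the Wnt pathway, Wnt7b alone was called, and the median interaction of the list was -0.04.

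Keratins form the intermediate filaments of epithelial cells, and 3 of 47 were called, all higher. Krt7, a simple-epithelial type II keratin, had levels of 8.81 and 9.22 in LacZ/+ High, 10.57 and 10.54 in LacZ/+ Low, 9.65 and 8.78 in LacZ/LacZ High, and 6.75 and 7.03 in LacZ/LacZ Low. The gates did not overlap in either genotype, and their order was opposite. Its interaction was 3.87 ± 0.41 (adjusted p = 0.024). Krt19, the smallest type I keratin of simple epithelia, had 3.06 ± 0.42 (adjusted p = 0.0403). Krt8, the usual luminal partner of Krt18 and Krt19, had 2.70 ± 0.41 (adjusted p = 0.0521) and was not called. The median over the keratin list, which holds those of skin and hair, was 0.03, and 15 of the 47 were above background on both arrays of at least 1 group.

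Krt23, a type I keratin, was called without a change of sign between genotypes. Its levels were 10.06 and 9.79 in LacZ/+ High, 9.56 and 9.84 in LacZ/+ Low, 9.53 and 9.24 in LacZ/LacZ High, and 6.42 and 6.53 in LacZ/LacZ Low. The other 6 arrays lay together and the 2 LacZ/LacZ Low arrays far below, for a gate difference of 0.22 ± 0.16 in LacZ/+ and 2.91 ± 0.16 in LacZ/LacZ (interaction 2.69 ± 0.23, adjusted p = 0.0124). The other genes with the same fitted sign in both genotypes were Tfap2b (0.19 ± 0.14 and 2.23 ± 0.14) and Mrps18c (0.02 ± 0.10 and 1.02 ± 0.10), a subunit of the mitochondrial ribosome. For these 3 genes the LacZ/+ difference did not pass an unadjusted p of 0.05 (limma), so a shared direction is not shown. In all 3, LacZ/LacZ Low was the group that stood apart.

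**Figure D4:**
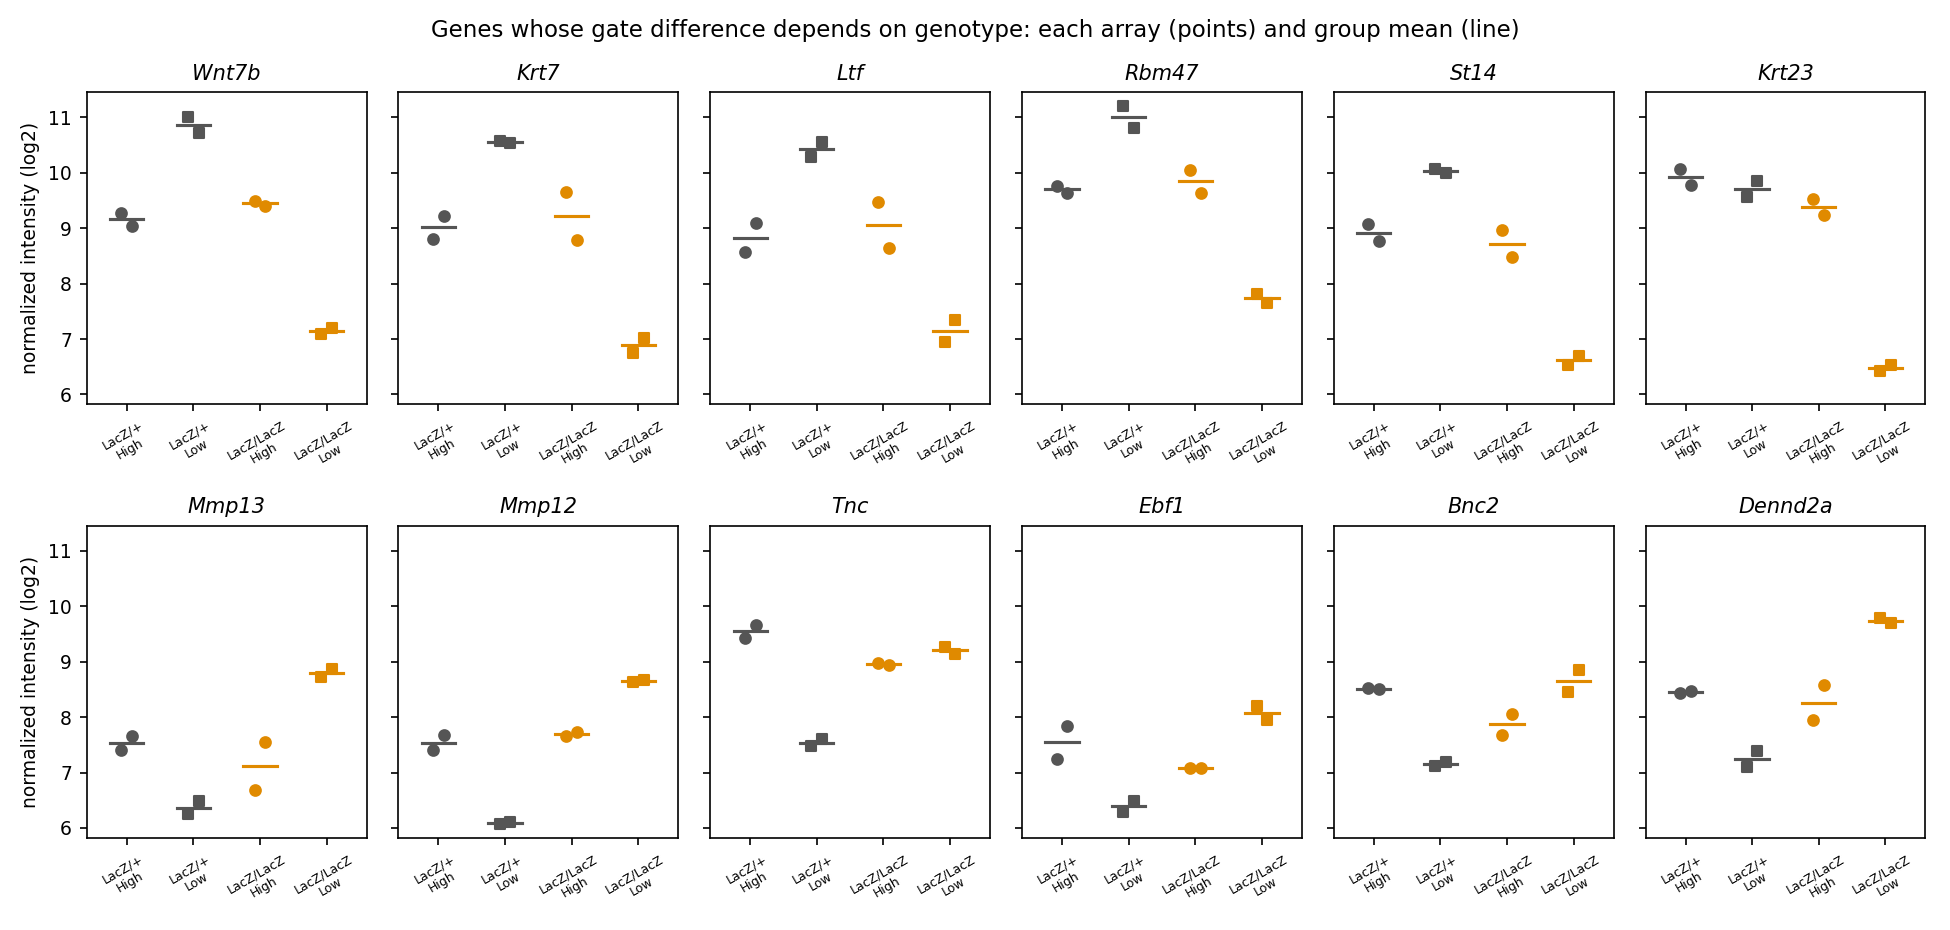
Normalized log2 intensity of 6 higher genes (top row) and 6 lower genes (bottom row) on each array, with points for arrays (circles High, squares Low, grey LacZ/+, orange LacZ/LacZ) and lines for the means of 2. The Low groups lie on opposite sides of the High groups in most panels, while Krt23 differs in LacZ/LacZ Low and Tnc in LacZ/+ Low.

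Regulators of the epithelial state had interactions of the same sign. Of 20 such genes 4 were called, all higher, and all 20 had a positive interaction (median 1.14). Rbm47, an RNA-binding protein that controls splicing in epithelia and assists the RNA-editing enzyme Apobec1, had levels of 9.75 and 9.64 in LacZ/+ High, 11.20 and 10.81 in LacZ/+ Low, 10.06 and 9.64 in LacZ/LacZ High, and 7.81 and 7.65 in LacZ/LacZ Low. The gates were separated in opposite directions, with an interaction of 3.43 ± 0.26 (adjusted p = 0.0124). Of 4 other Rbm47 probes, all dim, 1 gave -0.0015 and the others between 0.26 and 0.96, and the mean of the probes was 1.10. Esrp1, the epithelial splicing regulator, had 2.17 ± 0.29 (adjusted p = 0.0375).

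Tfap2b, an AP-2 factor of the luminal lineage, had 2.04 ± 0.20 (adjusted p = 0.0215), and 1.22 (adjusted p = 0.066) as the mean of its probes. Grhl2, a grainyhead factor that maintains epithelial junction genes, had 1.79 ± 0.26 (adjusted p = 0.0486). For Esrp1 and Grhl2 the LacZ/+ gate differences were small, at -0.29 ± 0.20 and -0.14 ± 0.19, and the LacZ/LacZ ones were 1.88 ± 0.20 and 1.64 ± 0.19. In both, LacZ/+ Low lay close to the brightest High array, and LacZ/LacZ Low lay below all other arrays.

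Membrane-anchored serine proteases process proteins at the epithelial surface, and their cascade runs from matriptase to prostasin under the control of Kunitz inhibitors. Of 13 genes of this system, 3 were called, all higher (median of the list 0.82). St14, matriptase, had levels of 9.08 and 8.76 in LacZ/+ High, 10.06 and 10.004 in LacZ/+ Low, 8.97 and 8.47 in LacZ/LacZ High, and 6.54 and 6.70 in LacZ/LacZ Low, with an interaction of 3.21 ± 0.27 (adjusted p = 0.0124). Prss8, prostasin, had 1.83 ± 0.25 (adjusted p = 0.0403) and Spint2, an inhibitor of both, 1.86 ± 0.14 (adjusted p = 0.0124). Protease and inhibitor thus carried interactions of the same sign.

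Of 21 genes of the apical surface and its trafficking, 6 were called, all higher. Smagp, a small adhesion glycoprotein, had 2.86 ± 0.24 (adjusted p = 0.0124), Tmc4, a channel-like membrane protein, 2.66 ± 0.17 (adjusted p = 0.0096), and Prom2, a prominin of membrane protrusions, 2.63 ± 0.37 (adjusted p = 0.0441). Vill, a villin-like actin binder, Lad1, ladinin, and Ezr, which links membrane to actin, had 1.37 ± 0.16, 1.35 ± 0.11 and 1.17 ± 0.16. Tmc4 and Lad1 were not above background on either LacZ/LacZ Low array, so High exceeded Low there by at least 2.19-fold and at least 1.41-fold. As the mean of its probes Prom2 had 1.01. Mal2, needed for transcytosis in polarized cells, lay outside that list and had levels of 6.83 and 6.998 in LacZ/+ High, 8.39 and 8.94 in LacZ/+ Low, 7.90 and 7.51 in LacZ/LacZ High, and 5.95 and 6.23 in LacZ/LacZ Low. Its interaction was 3.37 ± 0.32 (adjusted p = 0.0187).

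Transport and secretion genes gave a few more. Aqp5, a water channel, had an interaction of 2.57 ± 0.18 (adjusted p = 0.0096) and Ano1, a calcium-activated chloride channel, 2.18 ± 0.26 (adjusted p = 0.0333). These were 2 of 21 ion and water transport genes (median of the list 0.61). Galnt3, which starts O-glycosylation of mucins, had 2.52 ± 0.30 (adjusted p = 0.0316) and was 1 of 20 in its list. No milk protein gene of 13 was called by limma (5 at an unadjusted p of 0.05, 3 higher and 2 lower). Their median was 0.06, but only 6 of the 13 were above background on both arrays of at least 1 group. Their interactions ran from -1.47 (Plin2) to 2.72 (Csn3).

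Cell junctions gave fewer calls. Pkp3, a desmosomal plakophilin, was 1 of 18 desmosome and adherens junction genes, with 2.29 ± 0.16 (adjusted p = 0.0096). None of 31 tight junction genes was called by limma, with 14 at an unadjusted p of 0.05, 13 of them higher (median 0.70). Cldn3, the claudin with the highest value, had levels of 7.71 and 8.71 in LacZ/+ High, 10.05 and 9.98 in LacZ/+ Low, 8.64 and 8.16 in LacZ/LacZ High, and 7.22 and 6.97 in LacZ/LacZ Low. The gates were separated in opposite directions, but the LacZ/+ High arrays were 1 log2 unit apart, and the interaction of 3.12 ± 0.46 missed the threshold (adjusted p = 0.0502).

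Luminal progenitors, the hormone-receptor-negative luminal cells that give rise to milk-secreting alveoli, are known for innate defence proteins. Of 19 genes in that list 4 were called, all higher (median 1.28). Ltf, the iron-binding lactoferrin, had levels of 8.57 and 9.09 in LacZ/+ High, 10.29 and 10.55 in LacZ/+ Low, 9.46 and 8.64 in LacZ/LacZ High, and 6.94 and 7.34 in LacZ/LacZ Low, with an interaction of 3.50 ± 0.45 (adjusted p = 0.0351). Aldh1a3, which makes retinoic acid, had 2.66 ± 0.34 (adjusted p = 0.0351), Lcn2, lipocalin 2, 2.43 ± 0.35 (adjusted p = 0.0464), and Plet1, a surface protein of progenitors, 2.06 ± 0.20 (adjusted p = 0.0215). In all 4 genes the LacZ/+ Low arrays were the brightest and the LacZ/LacZ Low arrays the dimmest.

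The hormone-sensing luminal list had 1 call among 12, Ptn, the growth factor pleiotrophin, with 1.89 ± 0.14 (adjusted p = 0.0096; median of the list 0.42). Among basal genes, none of 14 contractile genes and none of 10 basal identity genes passed in limma, with medians of 0.17 and 0.29. At an unadjusted p of 0.05, 2 contractile genes were higher and 1 lower. Of the basal identity genes 0 were higher and 2 lower, Egfr (-1.74) and Vim (-1.81). The other 8 of these 10 genes had positive interactions that did not pass. Acta2, smooth muscle actin, was high in every group: 12.21 and 12.13 in LacZ/+ High, 11.79 and 11.47 in LacZ/+ Low, 11.88 and 11.66 in LacZ/LacZ High, and 9.89 and 10.13 in LacZ/LacZ Low. High was above Low in both genotypes, by 0.54 ± 0.15 and 1.76 ± 0.15 (interaction adjusted p = 0.0701). Itga6, the integrin chain of hemidesmosomes, was the only call among 8 hemidesmosome genes, with 1.31 ± 0.19 (adjusted p = 0.0498). It had no gate difference beyond its error in LacZ/+ (-0.08 ± 0.14).

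Taking the epithelial lists as one, 26 of 256 genes were higher and 0 lower (98 and 8 at an unadjusted p of 0.05), with a median of 0.47, against 96 and 39 of 16593 and a median of -0.002 for all genes.

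The lower genes with the most negative values were Mmp13, Dennd2a, Il17rd, Gpr176, Mmp12, Adgra2 and Tnc, and 7 of the 39 lay in the stromal lists. Mmp13, an interstitial collagenase, had levels of 7.41 and 7.66 in LacZ/+ High, 6.24 and 6.49 in LacZ/+ Low, 6.68 and 7.55 in LacZ/LacZ High, and 8.73 and 8.86 in LacZ/LacZ Low. High was above Low in LacZ/+ (1.17 ± 0.28) and below it in LacZ/LacZ (-1.68 ± 0.28), an interaction of -2.85 ± 0.39 (adjusted p = 0.0413). With median centring the adjusted p was 0.06, and as the mean of its probes the interaction was -1.44 (adjusted p = 0.0498). Mmp12, an elastase best known from macrophages, had levels of 7.40 and 7.68, 6.08 and 6.11, 7.67 and 7.72, and 8.63 and 8.67 in the same order of groups. It was not above background in LacZ/+ Low, so that High exceeded Low there by at least 2.66-fold, and its interaction was -2.40 ± 0.16 (adjusted p = 0.0096). These were 2 of 38 metalloproteinase genes, with 31 of the 38 below 0. Macrophage markers were near background: the mean log2 level of 13 myeloid genes was 5.89 to 5.94, with at most 2 of 13 above background on any array.

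Tnc, tenascin C, a matricellular protein of remodelling stroma, had levels of 9.43 and 9.66 in LacZ/+ High, 7.48 and 7.60 in LacZ/+ Low, 8.97 and 8.95 in LacZ/LacZ High, and 9.27 and 9.14 in LacZ/LacZ Low. The LacZ/+ Low arrays stood apart from the other 6, and the reversal in LacZ/LacZ was small (2.01 ± 0.11 against -0.24 ± 0.11, interaction -2.25 ± 0.16, adjusted p = 0.0096). It was 1 of 26 matricellular genes, whose median was -1.36. Thbs2, a thrombospondin of fibroblasts, had the most negative value of any gene, -3.84 ± 0.63, but its arrays in the High gate of LacZ/LacZ were at 9.10 and 10.53 and it did not pass (adjusted p = 0.0612). Col18a1, the basement membrane collagen that yields endostatin, was the 1 call among 37 collagen genes, with -1.68 ± 0.22 (adjusted p = 0.0375).

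Mesenchymal regulators gave 3 calls of 25, all lower. Ebf1, a factor of adipocyte precursors and B cells, had levels of 7.24 and 7.85 in LacZ/+ High, 6.29 and 6.49 in LacZ/+ Low, 7.09 and 7.09 in LacZ/LacZ High, and 8.21 and 7.95 in LacZ/LacZ Low (interaction -2.14 ± 0.30, adjusted p = 0.0416). Bnc2, a zinc finger protein of fibroblasts, had -2.14 ± 0.24 (adjusted p = 0.0276; 0.0515 as the mean of its probes), and Nfatc4, a calcineurin-dependent factor, -1.62 ± 0.18 (adjusted p = 0.0265). Twist2, a fibroblast basic helix-loop-helix factor, had -3.05 ± 0.50 and was not called (adjusted p = 0.0612).

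All 21 fibroblast genes had negative interactions (median -1.86), yet none passed in limma (15 at an unadjusted p of 0.05). The median gate difference of these genes was 1.65 in LacZ/+ and -0.36 in LacZ/LacZ. Pdgfra, the receptor that marks fibroblasts, had levels of 9.60 and 10.32 in LacZ/+ High, 6.99 and 8.90 in LacZ/+ Low, 9.33 and 10.15 in LacZ/LacZ High, and 10.47 and 10.37 in LacZ/LacZ Low. Its LacZ/+ Low arrays were almost 2 log2 units apart, and the interaction of -2.70 ± 0.88 did not pass (adjusted p = 0.229). The mean log2 level of the list was 9.26 and 10.12, 7.50 and 8.65, 9.41 and 9.89, and 9.97 and 9.98 on the arrays of LacZ/+ High, LacZ/+ Low, LacZ/LacZ High and LacZ/LacZ Low. For 20 epithelial regulators it was 7.55 and 7.53, 7.92 and 8.03, 7.73 and 7.24, and 6.62 and 6.61. Levels of fibroblast genes and of epithelial regulators thus ran in opposite orders in the 2 Low groups. Their part in the interactions of other genes was not tested. Not every epithelial list turned round. The median gate difference was 0.495 in LacZ/+ and 0.68 in LacZ/LacZ for basal contractile genes, and 0.673 and 1.028 for basal identity genes. Taking the stromal lists as one, 0 of 151 genes were higher and 7 lower (3 and 60 at an unadjusted p of 0.05, median -0.83).

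**Figure D5:**
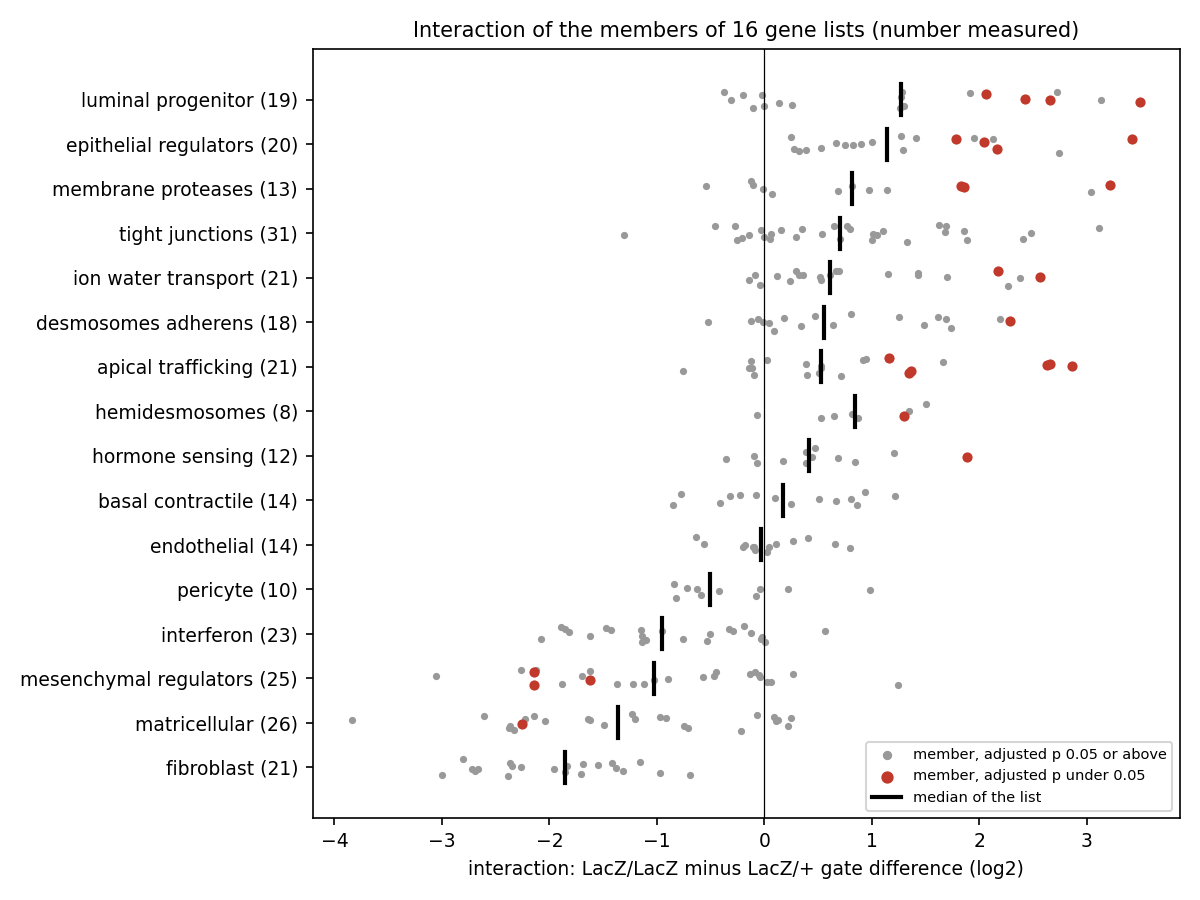
Interaction (x axis, log2) of each measured member of 16 gene lists (rows, number measured in brackets), with called members in red, the others in grey and the median of a list as a black bar. Among the lists shown, luminal and epithelial medians lie to the right of 0, and fibroblast, matricellular and mesenchymal medians to the left. Few members are called in any list. The lists shown were picked from 38. Those left out include keratins (median 0.03), mucins and glycosylation (0.09), milk proteins (0.06), collagens (-0.25) and metalloproteinases (-0.28).

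Signalling and immune genes were few. Il17rd, which dampens FGF receptor signalling, was the 1 call of 38 FGF pathway and feedback genes, with -2.46 ± 0.34 (adjusted p = 0.0439). Ccl5, a chemokine for T cells, was higher with 1.97 ± 0.29 (adjusted p = 0.0486), and Ccl21b, a homing chemokine with near-identical gene copies that the probe may not tell apart, was lower with -1.32 ± 0.13 (adjusted p = 0.0215). They were 2 of 37 chemokine genes. Vcam1, an adhesion molecule that binds leukocytes, had -1.23 ± 0.15 (adjusted p = 0.0339) and was 1 of 20 cytokine and inflammation genes. Interferon response genes had a median of -0.95 with 0 of 23 called by limma (10 at an unadjusted p of 0.05). No call fell among 63 ribosomal protein, 16 unfolded protein response, 22 immediate-early, 14 endothelial, 11 lymphoid, 11 adipocyte, 10 pericyte and 10 skeletal muscle genes, nor among the 8 genes of TAM signalling. At an unadjusted p of 0.05 these lists held 16, 5, 4, 2, 0, 2, 2, 1 and 3 genes, against 2374 of all 16593. Of the ribosomal genes 15 were higher and 1 lower, and 54 of 63 had a positive interaction. Of the unfolded protein genes 0 were higher and 5 lower, and 13 of 16 had a negative interaction. The share called over all genes was 0.814%, so 0 calls in lists this small says little about them.

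Some markers of cells that are minor in a gland were brighter in LacZ/LacZ Low than in any other group. Prg2, the major basic protein of eosinophils, which the CD45 and CD11b selection should have removed, had levels of 7.71 and 8.12 there and 6.14 to 6.36 elsewhere, with an interaction of -1.75 ± 0.22 (adjusted p = 0.0346). The other 7 of 8 eosinophil and mast cell genes were not called, among them the eosinophil markers Epx (0.0085) and Siglecf (-0.07). Only 1 of the 8, Prg2, was above background throughout any group. The globin genes Hbb-bt (8.20 and 8.01) and Hba-a1 (8.22 and 8.25) were brightest in the same 2 arrays and were not called (adjusted p = 0.0994 and 0.472). The mean log2 level of 5 erythrocyte genes was 7.07 and 7.04 in LacZ/LacZ Low and 5.84 to 6.54 in the other arrays. Whether carried-over cells take part in the interactions was not tested. Mbp, the myelin basic protein, was higher with 2.11 ± 0.26 (adjusted p = 0.0333), but a dimmer Mbp probe gave -0.05 and the mean of the probes 0.79 (adjusted p = 0.066). The other 4 Schwann cell genes had negative interactions.

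The remaining genes with the highest and lowest interactions belonged to no list. Nme7, a nucleoside diphosphate kinase family member bound to the gamma-tubulin ring, had levels of 8.06 and 8.33 in LacZ/+ High, 9.71 and 10.004 in LacZ/+ Low, 9.11 and 8.51 in LacZ/LacZ High, and 6.77 and 6.73 in LacZ/LacZ Low (interaction 3.72 ± 0.30, adjusted p = 0.0124). As the mean of its 6 probes it had 1.32. A second probe, above background on all 8 arrays, gave 3.50, and the others, all dim, gave 0.02 to 0.37. Slc35f3, a solute carrier, Osbpl3, an oxysterol-binding protein relative, and Mansc1 had 3.11 ± 0.22, 2.98 ± 0.39 and 2.80 ± 0.29. Osbpl3 did not pass as the mean of its probes (1.99, adjusted p = 0.06). Of its other probes, one above background on all 8 arrays gave 2.67 and a dim one 0.32.

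On the lower side Dennd2a, an exchange factor for Rab GTPases, had levels of 8.44 and 8.47 in LacZ/+ High, 7.10 and 7.39 in LacZ/+ Low, 7.95 and 8.57 in LacZ/LacZ High, and 9.78 and 9.69 in LacZ/LacZ Low (interaction -2.68 ± 0.30, adjusted p = 0.0265). Adgra2, an adhesion receptor that with Reck transmits Wnt7a and Wnt7b signals in brain endothelium, had levels of 7.89 and 8.30, 6.83 and 6.79, 7.71 and 8.13, and 8.97 and 9.01 in the same order. Its interaction was -2.36 ± 0.26 (adjusted p = 0.026), opposite in sign to that of Wnt7b. Gpr176, an orphan receptor, had -2.45 ± 0.31, Jarid2, a cofactor of Polycomb complex PRC2, -2.22 ± 0.19, Dpp7, a lysosomal dipeptidyl peptidase, -2.09 ± 0.31, and Hectd2, a ubiquitin ligase, -1.85 ± 0.15.

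In all, 40 of the 135 genes were in one of the 38 lists and 95 in none. Among the latter, the following were chosen after their values were seen. Of 12 replication-dependent H2B histone genes, 5 were higher (H2bc7, H2bc11, H2bc12, H2bc14 and H2bc15), and of 9 linker histone genes 1, H1f2, with interactions of 1.62 to 2.14. The 14 H2A, 9 H3 and 10 H4 genes measured had interactions of -0.24 to 1.37 that did not pass the threshold. The H2B copies are nearly identical and their probes may measure the same transcripts, and in a proliferation list 0 of 16 genes were called by limma (1 at an unadjusted p of 0.05). The replication genes Cdc7, a kinase that fires origins, and Timeless, a replication fork protein, were lower (-1.34 and -1.13). Other higher genes were Edn1, the peptide endothelin 1 (2.43), Clu, the chaperone clusterin (2.35), Wfdc2 (2.36), the platelet-derived growth factor chain Pdgfa (1.86) and the epidermal regulator Zfp750 (1.63). Other lower genes were Lrp1, an endocytic receptor (-1.58), Fermt2, the integrin activator kindlin-2 (-1.40), the glucose transporter Slc2a3 (-1.51) and Apobec1, the editing enzyme that Rbm47 assists (-1.83).

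Of the 52 called genes named by rule, 13 had an interaction over 1.5 times smaller as the mean of all their probes. Beside the values given above, these were Aqp5 (1.32), Ltf (2.06), Smagp (1.69), Spint2 (1.13), Tnc (-1.41) and Col18a1 (-1.09), which stayed past the threshold.

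Several calls lay close to the threshold, and other settings that kept all arrays and used no replicate block ended some of them. Without background correction 21 were lost (adjusted p = 0.052 to 0.0739): Aldh1a3, Ano1, Ccl5, Col18a1, Dpp7, Ebf1, Esrp1, Galnt3, Gpr176, Grhl2, Il17rd, Itga6, Krt19, Lcn2, Ltf, Mbp, Mmp13, Osbpl3, Prg2, Prom2 and Prss8. Median centring ended the calls of Col18a1, Dpp7, Ebf1, Ezr, Gpr176, Il17rd, Itga6, Mmp13 and Vcam1 (0.0507 to 0.0788). Cyclic loess ended those of Ccl5, Dpp7, Ebf1, Ezr, Il17rd, Lcn2, Mmp13 and Mrps18c (0.0518 to 0.0617), and robust variances those of Ccl5, Dpp7, Grhl2, Il17rd, Itga6, Lcn2, Mrps18c and Prom2 (0.0504 to 0.0562). Offset 16 ended those of Ezr, Mrps18c and Vcam1, the intensity trend these and Itga6, and the filter on dim genes Mrps18c. Without background correction the interactions of Vill (0.874), Lad1 (0.833) and Prg2 (-1.16) were over 1.5 times smaller, and with offset 16 that of Lad1 (2.03) was over 1.5 times larger.

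Of the 135 genes, 91 had a single probe. Of 41 with another probe above background on at least 2 arrays, that probe had the same sign in 35, and in Cdc7, Mbp, Rbm47, Timeless, Tmem184a and Wnt7b at least 1 had the opposite sign, with sizes of 0.154 or less. In 21 genes a whole group was not above background, and the size of their interaction can be understated.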

How the data were processed

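The deposited values are linear probe intensities for 25697 probes of an Illumina mouse bead array, per the value table itself. The design text names log2 quantile normalized data and another array format, but the deposited intensities had no common distribution and no log transform. The scanner's bead summary and any background subtraction were not given in sources used here. Both cases had been foreseen in the design of the tests. Intensities were background corrected by normexp (offset 50), quantile normalized and log2 transformed, an offset scale that makes changes of dim genes look smaller.

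Of the probes, 23978 had 1 gene symbol in the platform annotation, 0 had several and 1719 none, and 23962 matched the GRCm38.p6 RefSeq gene table, with 0 symbols changed. Each of 16593 genes was represented by its brightest probe (highest mean level), a choice needed for 4777 genes. The background level was the 95th percentile of 1326 odorant, vomeronasal and trace amine receptor probes, and a bound ("at least") sets a group's mean against the higher of the probe's own level and the lowest level above background. Raw median intensities were 115.7 to 126.7, and 2 arrays per group limit the precision.

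One limma 3.58.1 model (R 4.3.3) gave all contrasts, with 1 coefficient for each of 4 groups and no other term (residual degrees of freedom 4, prior 2.4). Tests were two-sided and moderated, with Benjamini-Hochberg adjustment over all genes and a threshold of 0.05. The fit was tested on simulated data. Groups and replicate numbers came from the sample titles. By their positions in the labels, the 8 arrays share a chip, so chip is no batch. Errors after ± are standard errors from the fit.

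The contrast, the 38 gene lists and the motifs were chosen with earlier results of these data known. Genes named were the 12 largest interactions per direction, the 5 per direction with the largest smaller gate difference, the calls with equal gate signs, the called list members and up to 4 others per list with the largest interaction, and the TAM genes. The alternatives were no background correction, offset 16, median centring, cyclic loess, the mean of all probes, a filter on dim genes, other variance models, array weights, replicate blocks and leaving out each array. List medians are descriptions without a set test.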

Additional observations from a re-analysis of the deposited data

Results flagged for a closer look

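The effect of the sorting gate differed between the genotypes, by the limma interaction test with adjustment over all genes, in 135 genes, of which 96 were higher, 39 lower and 132 turned round. Each group held 2 arrays, too few to look for a single array far from the others. Among the genes named by rule, the higher interactions, in log2, were Wnt7b 3.99, Krt7 3.87, Nme7 3.72, Ltf 3.50, Rbm47 3.43, Mal2 3.37, St14 3.21, Slc35f3 3.11, Krt19 3.06, Osbpl3 2.98, Smagp 2.86 and Mansc1 2.80. Next came Krt23 2.69, Tmc4 2.66, Aldh1a3 2.66, Prom2 2.63, Aqp5 2.57, Galnt3 2.52, Lcn2 2.43, Pkp3 2.29, Ano1 2.18, Esrp1 2.17, Mbp 2.11 and Plet1 2.06. The smallest of these were Tfap2b 2.04, Ccl5 1.97, Ptn 1.89, Spint2 1.86, Prss8 1.83, Grhl2 1.79, Vill 1.37, Lad1 1.35, Itga6 1.31, Ezr 1.17 and Mrps18c 0.995. The lower interactions were Mmp13 -2.85, Dennd2a -2.68, Il17rd -2.46, Gpr176 -2.45, Mmp12 -2.40, Adgra2 -2.36, Tnc -2.25, Jarid2 -2.22 and Ebf1 -2.14. The others on that side were Bnc2 -2.14, Dpp7 -2.09, Hectd2 -1.85, Prg2 -1.75, Col18a1 -1.68, Nfatc4 -1.62, Ccl21b -1.32 and Vcam1 -1.23. In Krt23, Tfap2b and Mrps18c the fitted gate differences had the same sign in both genotypes, but those in LacZ/+ did not pass an unadjusted p of 0.05.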

How the results depend on the processing

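The reported setting called 135 genes (96 higher, 39 lower, 132 turned round). Without background correction the numbers were 85, 56, 29 and 81, with offset 16 they were 260, 168, 92 and 257, and with the intensity trend in the variance 276, 164, 112 and 271. Restricting the test to 10576 genes above background on at least 2 arrays gave 259, 166, 93 and 257. Median centring gave 182 calls, with 160 higher and 22 lower. Cyclic loess, the mean of all probes, robust variances and array weights gave 113, 130, 113 and 154. Leaving out 1 array gave 0 to 329 calls, 0 to 179 higher, 0 to 150 lower and 0 to 322 turned round, and the lone array was then assumed to vary like the other groups. At least 79 of the 135 genes were called under each alternative that kept all arrays, and between 0 and 115 when an array was left out. The 135 kept their sign under every alternative, a direction that their choice by size favours and that is no sign of stability.

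The replicate numbers do not pair the samples by any label. Same-numbered arrays deviated together between the LacZ/+ gates (r = 0.40 across genes) and not between the LacZ/LacZ gates (0.01). With the number as a replicate block 117 genes were called (66 higher, 51 lower, 115 turned round), and with a replicate block within genotype 207 (105 higher, 102 lower, 200 turned round). Of the 52 called genes named by rule, the first block ended the calls of Ccl5, Ebf1, Ezr, Il17rd, Itga6, Krt19, Lcn2, Ltf, Mbp, Mrps18c, Prg2, Prom2 and Vcam1 (adjusted p = 0.0501 to 0.0656) and the second those of Ccl5, Ezr, Gpr176, Il17rd, Itga6 and Mrps18c (0.0504 to 0.0603). Under all 11 alternatives with every array, 26 of the 52 kept their call.

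Among the named genes, 377 of the values under alternatives were no longer called and 123 newly called. Signs turned in 6 named genes, none called in the reported setting or in the one that turned it: Tyro3 with median centring (-0.0188) and Birc5 as the mean of its probes (0.001). Over the fits without 1 array, Tyro3 ran from -0.1853 to 0.2319, Cd8a from -0.023 to 0.2513, Creld2 from -1.0151 to 0.0461, Lyz1 from -0.0665 to 0.598 and Socs1 from -0.2568 to 0.0529. The causes were not tested. Signal near background limits the dim genes.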
